A study of Mus musculus with 2 samples.

Results

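The genes of glycolysis and glucose uptake were followed across the cell cycle of single bone marrow cells. They were chosen by name and comprised 32 of the 53378 gene rows of the count tables: 2 glucose transporters (Slc2a1, Slc2a3), the 3 hexokinases Hk1, Hk2 and Hk3, the ADP-dependent glucokinase Adpgk, the aldose epimerase Galm, the isomerase Gpi1, 3 phosphofructokinases (Pfkl, Pfkm, Pfkp) and 3 enzymes that set their activator (Pfkfb2, Pfkfb3, Pfkfb4). The lower part of the pathway was represented by Aldoa, Aldoc, Tpi1, Gapdh, Pgk1, Pgam1, Bpgm, Eno1, Eno2, Eno3 and Pkm. The fate of pyruvate was represented by the lactate dehydrogenases Ldha and Ldhb, the pyruvate dehydrogenase kinases Pdk1, Pdk2 and Pdk3, and the lactate transporters Slc16a1 and Slc16a3. All 32 had counts in every gate.

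The cells came from C57BL/6 mice aged 8 weeks that carry the Fucci reporter, in which an orange protein (mKO2) fused to a part of Cdt1 marks G0 and G1 and a green protein (mAG) fused to a part of geminin marks S, G2 and M. Each of 4 sorting gates gave 48 cells. One library held mKO2high and mKO2low cells, and the other held mKO2neg and mAG+ cells. No further surface marker, treatment or mutation is given in the labels, all gates share the reporter, and the number of mice is not given in the sources used here, so each gate is 1 sample and no test across replicates could be made.

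The deposited gene labels were displaced against the counts, and every gene below was read from the row of the gene just before it in the order of GENCODE release 21 for mouse (vM21), counting genes in the tables only. Read this way, 82 genes of ribosomal proteins held 19.65% of the counts, against 0.1674% as labelled. Read as labelled, the 32 glycolysis genes would hold 1321 CPM (counts scaled to 1e6 per gate) in mKO2high and 1289 in mKO2low, then 879 in mKO2neg and 1121 in mAG+. Levels are CPM of the summed counts of a gate and come from the 3' ends of transcripts without correction for length, so they are compared between gates and not between genes. Intervals in brackets are exact 95% intervals that cover counting error only, not the spread between cells or mice.

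Glycolysis splits glucose into pyruvate and yields ATP without oxygen. Its first steps trap and phosphorylate glucose, its middle steps split the sugar and its last steps return ATP, after which pyruvate is either reduced to lactate or taken into mitochondria, a step that pyruvate dehydrogenase kinases hold back. Quiescent blood stem cells of the hypoxic marrow are known for relying on glycolysis and for holding pyruvate out of mitochondria, and the transcription factor HIF-1, which binds DNA at the core ACGTG or GCGTG, drives many of these genes.

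The upstream sequence of 5 abundant genes is shown because they cover the widest contrast between dividing and non-dividing cells described below: Aldoa, Ldha and Pkm were lowest in mAG+ relative to mKO2neg, and Tpi1 and Gapdh highest, among members with at least 500 counts over both gates. Each line gives the 250 bases before a RefSeq start on GRCm38.p6, 5' to 3' on the gene's strand, and for genes with several starts the one with the most matches. Capitals mark ACGTG or GCGTG on either strand, which on the reverse strand read CACGT or CACGC. The palindrome CACGTG holds ACGTG on both strands and counts as 2 matches.
Aldoa: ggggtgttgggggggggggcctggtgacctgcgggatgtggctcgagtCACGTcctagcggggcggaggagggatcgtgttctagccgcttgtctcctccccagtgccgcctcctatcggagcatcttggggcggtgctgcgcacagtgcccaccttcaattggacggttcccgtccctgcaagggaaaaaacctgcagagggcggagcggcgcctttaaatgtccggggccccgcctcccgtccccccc
Ldha: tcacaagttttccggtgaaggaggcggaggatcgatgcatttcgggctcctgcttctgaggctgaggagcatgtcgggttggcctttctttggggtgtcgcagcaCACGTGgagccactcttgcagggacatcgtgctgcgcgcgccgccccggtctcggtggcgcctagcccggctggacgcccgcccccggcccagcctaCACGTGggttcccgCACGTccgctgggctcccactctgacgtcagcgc
Pkm: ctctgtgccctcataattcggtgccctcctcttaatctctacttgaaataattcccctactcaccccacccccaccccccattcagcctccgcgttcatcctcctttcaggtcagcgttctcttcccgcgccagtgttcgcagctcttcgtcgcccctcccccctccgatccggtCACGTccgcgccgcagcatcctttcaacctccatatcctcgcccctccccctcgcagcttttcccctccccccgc
Tpi1: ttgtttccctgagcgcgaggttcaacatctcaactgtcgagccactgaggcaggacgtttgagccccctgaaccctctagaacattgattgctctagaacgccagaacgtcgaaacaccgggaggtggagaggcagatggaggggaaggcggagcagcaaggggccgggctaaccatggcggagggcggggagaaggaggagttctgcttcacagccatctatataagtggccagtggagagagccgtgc
Gapdh: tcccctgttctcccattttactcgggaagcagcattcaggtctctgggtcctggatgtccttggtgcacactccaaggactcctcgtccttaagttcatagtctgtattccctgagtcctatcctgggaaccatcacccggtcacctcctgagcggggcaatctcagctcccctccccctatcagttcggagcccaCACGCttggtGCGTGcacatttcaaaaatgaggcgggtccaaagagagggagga
The windows lie at chr7:126799179-126799428 (minus strand, Aldoa), chr7:46845554-46845803 (plus, Ldha), chr9:59656977-59657226 (plus, Pkm), chr6:124814159-124814408 (minus, Tpi1) and chr6:125165774-125166023 (minus, Gapdh). Ldha held 5 matches, Gapdh 2, Aldoa and Pkm 1 each, and Tpi1 0. Over all RefSeq starts, 26 of the 30 members with an entry held at least 1 match (86.7%), against 48.2% of 16522 genes with an entry. CACGTG alone was found in 6 of these 30 members (20%), against 7.81% of genes. A gene with more starts has more windows in which to match. Counted per start, 78.3% of 46 member windows held a match to ACGTG or GCGTG, against 45.0% of 20150 windows. For CACGTG these shares were 13.0% and 6.78%. Member windows were richer in G and C, with a median of 59.8% against 56.0% over all windows. A match describes letters only and says nothing of binding, and the printed genes with matches lay on both sides of the contrast.

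Depth differed between gates. Median counts per cell were 14510.5 in mKO2high and 26851.5 in mKO2low, then 24633 in mKO2neg and 45177 in mAG+, and gate totals were between 934036 and 2791584. The 7 proliferation markers, Mki67 and Top2a among them, summed to 222.7 CPM in mKO2high and 316.5 in mKO2low, then 959.8 in mKO2neg and 4322 in mAG+, the order the reporter is built to give. The 12 stem and progenitor markers summed to 2599, 2377, 2179 and 1778 CPM in the same order of gates. The 10 neutrophil and monocyte markers summed to between 1034 CPM (mAG+) and 1852 CPM (mKO2neg). Lyz2 was at 590 CPM in mAG+ and between 1030 and 1058 in the other gates, and Prtn3 at 168 CPM in mAG+ and between 305 and 429 in the others. Camp was at 63.8 CPM in mAG+, 376 in mKO2neg and at most 18.2 in the other library, while Ctsg was at 0 in all gates and Elane and Mpo at no more than 5.02 CPM in any. S100a8 and S100a9 were higher in mAG+, at 117 and 69.9 CPM, than in mKO2neg, at 58.4 and 31.7 CPM. Of 8 markers of this list with at least 10 counts over those gates, 5 were lower in mAG+ and 3 higher. The 8 erythroid markers summed to between 185.9 and 361.7 CPM, the 5 megakaryocyte markers to between 109.4 and 324.4, the 6 B lineage markers to between 81.4 and 198.8, the 5 T and NK markers to at most 38.0 with Cd3e, Cd3g and Gzma at 0, and the 4 dendritic and mast cell markers to at most 32.3 with Siglech and Ms4a2 at 0. The part of other cell types in the results below was not tested.

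Taken as a sum, the 32 glycolysis genes held a smaller share of the counts in mAG+ than in the other gates. The 32 genes summed to 5129 CPM (4985 to 5277) in mKO2high and 5269 CPM (5161 to 5379) in mKO2low, then 4761 CPM (4655 to 4868) in mKO2neg and 3758 CPM (3687 to 3831) in mAG+. The intervals of mKO2high and mKO2low overlapped, mKO2neg was below both and mAG+ was lowest. In mAG+ over mKO2neg, the log2 ratio of the sums was -0.34 (-0.38 to -0.30). Without Gapdh, the member with the most counts and one of those higher in mAG+, it was -0.49. In mKO2low over mKO2high it was 0.04 (-0.01 to 0.09). Abundant members weigh most in such sums, and a sum without Aldoa, Ldha and Pkm was not taken. In mAG+ against mKO2neg these were at 122 against 595, 364 against 659 and 423 against 662 CPM. Together these differences are about as large as that between the 2 sums. The lower sum therefore shows no fall in the remaining members. Of the 32 members, 22 were lower in mAG+ than in mKO2neg and 10 higher. In bulk sums of this kind, fewer cells with a transcript and less of it per cell cannot be told apart, so shares of cells are given as well.

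**Figure D1:**
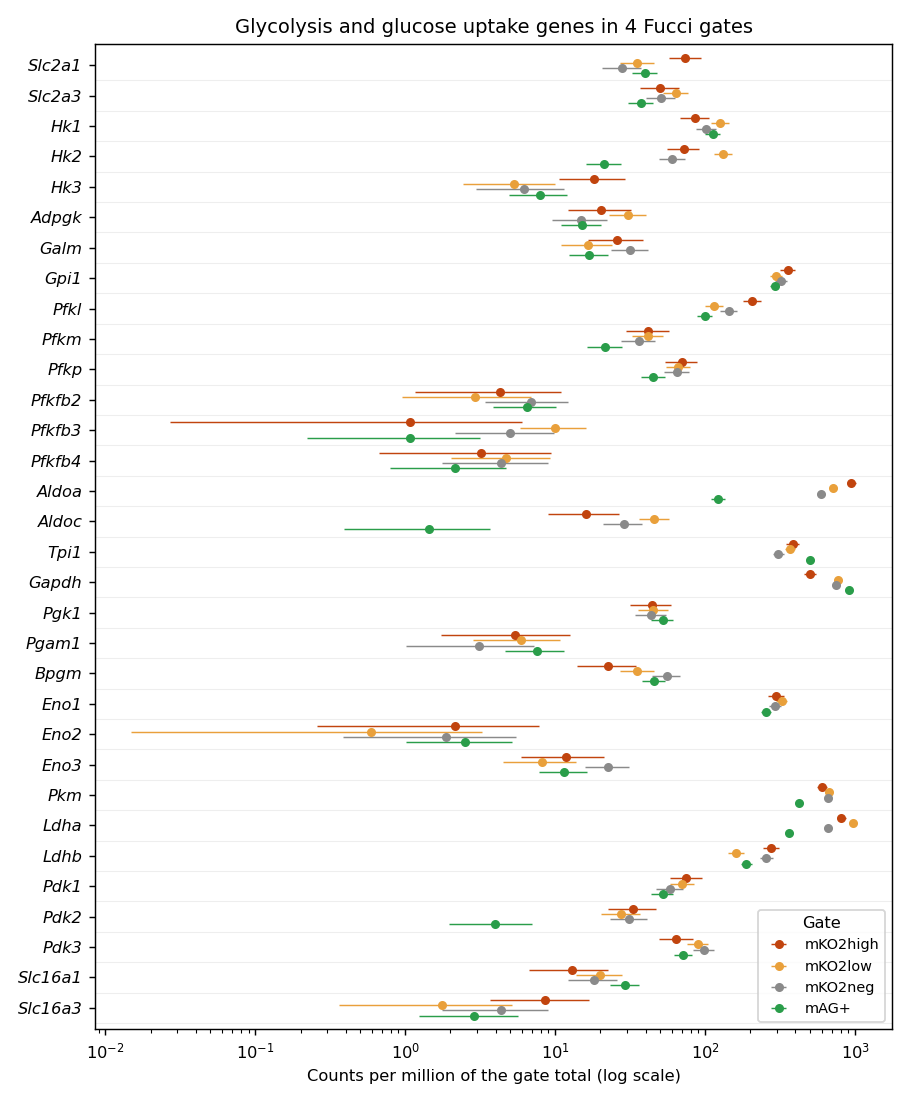
Gate-sum level of each of the 32 genes in the 4 gates, in CPM on a log axis, with exact 95% intervals for counting error. Genes run down the page in pathway order. Aldoa in mAG+ (122 CPM) stands apart from its other 3 gates (595 to 943 CPM), while Gapdh and Tpi1 are highest in mAG+.

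Of the glucose transporters, Slc2a1 was highest in mKO2high and Slc2a3 was lowest in mAG+, and ratios of both changed when cells were reduced to equal depth. Slc2a1, the basal glucose transporter of blood cells, was at 73.9 CPM in mKO2high and 35.2 in mKO2low, then 28.0 in mKO2neg and 39.8 in mAG+. The log2 ratio in mKO2low over mKO2high was -1.05 (-1.59 to -0.55). Cells with an Slc2a1 count numbered 16, 14, 16 and 24 of 48. With equal weight for every cell the same log2 ratio was -1.03. With every cell reduced to 5000 counts it was -0.01, so this difference was not seen at equal depth. That value rests on 11 counts in mKO2low and 9 in mKO2high, too few to show that the difference is absent. Slc2a3, a transporter of high affinity, was at 50.3, 64.0, 50.4 and 37.3 CPM from mKO2high to mAG+, and each within-library interval of its ratio reached or spanned 0. Its log2 ratio in mAG+ over mKO2neg, -0.43, was -0.72 with equal weight for every cell, -0.75 without each gate's deepest cell and -1.25 at 5000 counts per cell.

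Of the enzymes that trap glucose, Hk2 was lowest in mAG+, and Hk1 differed less between gates. Hk2, the inducible hexokinase, was at 71.7 CPM (55.6 to 91.1) in mKO2high and 132 CPM (115 to 150) in mKO2low, then 60.3 CPM (48.9 to 73.6) in mKO2neg and 21.1 CPM (16.1 to 27.3) in mAG+. The log2 ratio was -1.49 (-2.0 to -1.03) in mAG+ over mKO2neg and 0.87 (0.47 to 1.29) in mKO2low over mKO2high. Hk1, the widely expressed hexokinase, was at 85.7, 126, 102 and 113 CPM in the same gates, a log2 ratio of 0.14 (-0.14 to 0.42) in mAG+ over mKO2neg, which was -0.65 at 5000 counts per cell. With equal weight for every cell the Hk2 ratio in mAG+ over mKO2neg was -2.20, and at 5000 counts per cell it was -1.58. The difference between mKO2low and mKO2high was not seen at that depth, where the Hk2 ratio was 0.05, from 23 and 18 Hk2 counts. In mKO2low over mKO2high the ratio was 0.62 with equal weight for every cell and 1.04 without each gate's deepest cell. Cells with an Hk2 count numbered 14, 23, 19 and 17 of 48 from mKO2high to mAG+, and 8 of 39, 13 of 48, 11 of 43 and 6 of 45 at 5000 counts per cell.

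The remaining early enzymes had fewer counts. Hk3, the hexokinase of myeloid cells, was at 18.2, 5.28, 6.22 and 7.88 CPM from mKO2high to mAG+ and came from 2 to 4 cells per gate, so its log2 ratio of -1.65 in mKO2low over mKO2high rests on few cells and was -0.83 with equal weight for every cell. Adpgk, a glucokinase that uses ADP, was at 20.3, 30.5, 14.9 and 15.1 CPM. Galm, which interconverts the anomers of glucose and galactose, was at 25.7, 16.4, 31.7 and 16.8 CPM, lower in mAG+ than in mKO2neg by the interval of its log2 ratio (-1.52 to -0.31). Its ratio, -0.90, was -0.52 with equal weight for every cell and -1.79 at 5000 counts per cell, and 1 cell held 40.4% of its counts in mAG+ and 41.2% in mKO2neg. Gpi1, which turns glucose-6-phosphate into fructose-6-phosphate, was at 354, 297, 321 and 292 CPM, with a log2 ratio of -0.25 (-0.46 to -0.05) in mKO2low over mKO2high and -0.14 (-0.30 to 0.02) in mAG+ over mKO2neg.

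Of the 3 phosphofructokinases, which catalyse the committed step, Pfkl and Pfkm were lower in mAG+ than in mKO2neg, while the direction of Pfkp turned on 1 cell. Pfkl, the liver-type phosphofructokinase, was at 206 CPM in mKO2high and 115 in mKO2low, then 144 in mKO2neg and 99.2 in mAG+. Its log2 ratio was -0.53 (-0.79 to -0.28) in mAG+ over mKO2neg and -0.83 (-1.13 to -0.54) in mKO2low over mKO2high. Pfkm, the muscle type, was at 41.8, 41.7, 36.1 and 21.5 CPM, and Pfkp, the platelet type, at 69.6, 66.3, 64.7 and 45.1 CPM. In mAG+ over mKO2neg their log2 ratios were -0.73 (-1.29 to -0.20) and -0.51 (-0.90 to -0.13). In mKO2neg 61.5% of the Pfkp counts came from 1 cell, and the Pfkp ratio was 0.60 without the top cell of each gate, 0.72 without each gate's deepest cell, 0.88 with equal weight for every cell and 1.21 at 5000 counts per cell.

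The bifunctional enzymes that make or remove fructose-2,6-bisphosphate, the activator of phosphofructokinase, were sparse. Pfkfb3, the form with the strongest kinase activity, had 1 count in mKO2high and 17 in mKO2low, then 8 in mKO2neg and 3 in mAG+, in 1, 4, 3 and 1 cells. Its log2 ratios, 2.55 (0.55 to 8.61) in mKO2low over mKO2high and -1.83 (-4.76 to -0.15) in mAG+ over mKO2neg, each rest on at most 4 cells a gate, and with equal weight for every cell they were 1.74 and -0.69. Pfkfb2 had 4, 5, 11 and 18 counts and Pfkfb4 had 3, 8, 7 and 6, and each within-library interval of their ratios spanned 0.

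Both aldolases were far lower in mAG+ than in the other gates. Aldoa, the main aldolase of most tissues, which splits fructose-1,6-bisphosphate, was at 943 CPM (882 to 1008) in mKO2high and 715 CPM (675 to 756) in mKO2low, then 595 CPM (558 to 634) in mKO2neg and 122 CPM (110 to 136) in mAG+. The 4 intervals do not overlap, and mAG+ is far below the other 3 gates. The log2 ratio in mAG+ over mKO2neg was -2.28 (-2.47 to -2.10), and between -2.28 and -2.47 under every alternative that gave a value. Aldoc, the brain-type aldolase, was at 16.1, 45.8, 28.6 and 1.43 CPM from mKO2high to mAG+. Its log2 ratio was -3.94 (-6.25 to -2.87) in mAG+ over mKO2neg, where mAG+ had 4 counts in 1 cell against 46 counts in 7 mKO2neg cells, and 1.47 (0.70 to 2.42) in mKO2low over mKO2high. At 5000 counts per cell these were -2.37 and 0.61.

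In single cells the difference in Aldoa lay in most of the gate and not in a few cells. Among cells with at least 1000 counts, the median level was 736 CPM in 44 mKO2high cells, 636 in 48 mKO2low cells, 625 in 43 mKO2neg cells and 77.2 in 45 mAG+ cells. The upper quartile of mAG+ cells, 192.1 CPM, was below the lower quartile of mKO2high (386), mKO2low (478) and mKO2neg (339), and their highest value was 394 CPM. Aldoa was counted in 89.6%, 100%, 85.4% and 72.9% of cells from mKO2high to mAG+. With cells reduced to 5000 counts it was counted in 35 of 39, 46 of 48, 38 of 43 and 16 of 45 cells, which for mAG+ is 35.6% (21.9 to 51.2) and for the next lowest gate, mKO2neg, 88.4% (74.9 to 96.1). A neighbouring gene that vM21 also calls Aldoa, chr7:126800790-126809108, held 1 count in all.

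**Figure D2:**
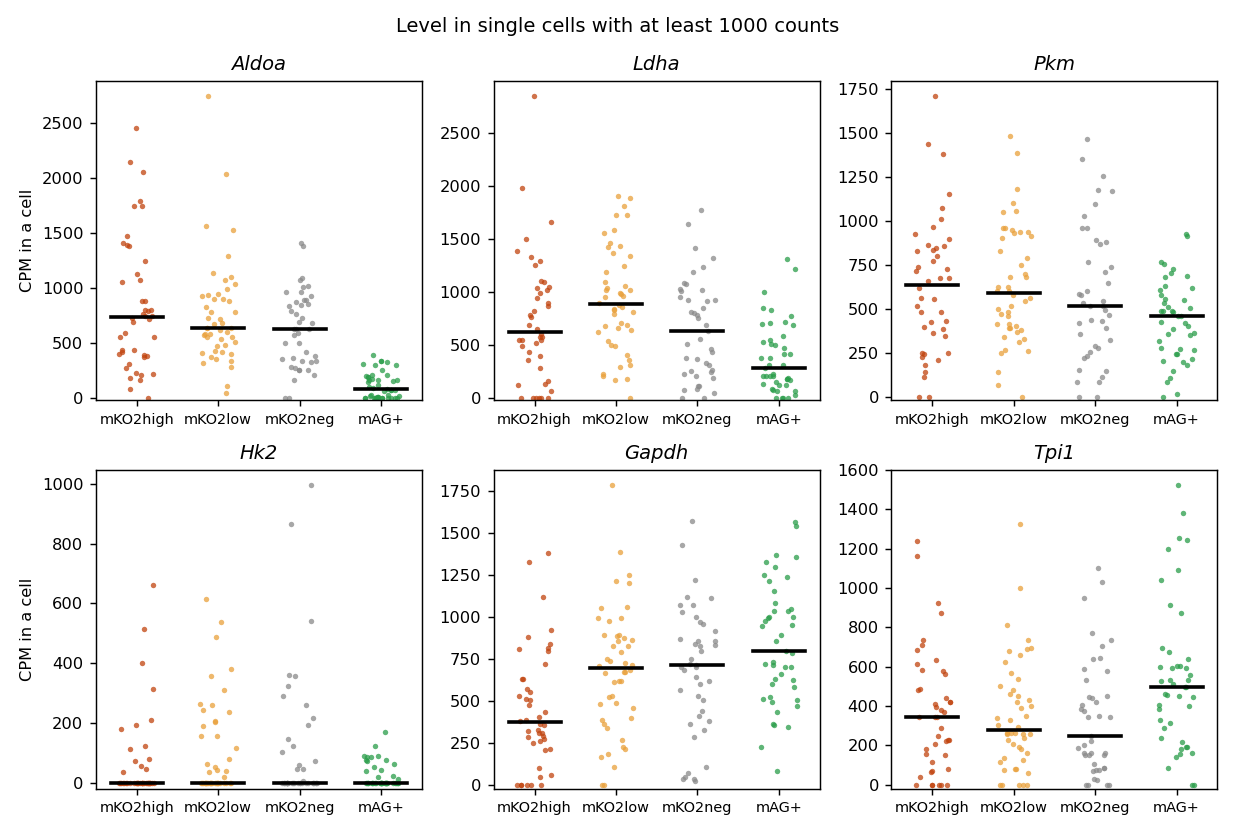
Level of 6 genes in each cell with at least 1000 counts, in CPM of the cell's own counts on a linear axis, by gate, with a bar at the median. Aldoa is low in nearly all mAG+ cells (median 77.2 CPM), Ldha is lower there too, and Gapdh and Tpi1 have their highest medians in mAG+ cells.

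Tpi1 and Gapdh, the triose steps, were higher in mAG+ than in mKO2neg. Tpi1, which interconverts the 2 triose phosphates, was at 383 CPM (345 to 425) in mKO2high and 370 CPM (342 to 400) in mKO2low, then 308 CPM (282 to 337) in mKO2neg and 504 CPM (478 to 531) in mAG+. It was highest in mAG+, with a log2 ratio of 0.71 (0.56 to 0.86) over mKO2neg, and this was 0.52 once each gate's deepest cell was left out and 0.39 at 5000 counts per cell. Gapdh, which makes the first high-energy intermediate, was at 499 CPM (455 to 546), 770 CPM (729 to 813), 748 CPM (706 to 791) and 906 CPM (871 to 942) in the same gates. Its log2 ratio was 0.28 (0.18 to 0.38) in mAG+ over mKO2neg and 0.62 (0.47 to 0.78) in mKO2low over mKO2high, so mKO2high was the gate that stood lowest. The last 500 bases of the Gapdh transcript were near-identical to 91 other annotated genes, 86 of them pseudogenes, and how the authors' counting treated such reads is not given in the sources used here.

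Among the 3-carbon steps that follow, no member but Eno1 and Eno3 had an interval off 0 in mAG+ over mKO2neg. Pgk1, the first ATP-yielding step, was at 43.9, 45.2, 43.5 and 51.9 CPM from mKO2high to mAG+, and each within-library interval spanned 0. Its log2 ratio in mAG+ over mKO2neg, 0.25, was 1.03 with equal weight for every cell and 1.04 at 5000 counts per cell. It was 0.11 with the quality filter given below. The highest mAG+ cell was at 1190 CPM of Pgk1, where the median was 44.1 CPM, and that cell did not pass the filter. Pgk1 was counted in 36 of 48 mAG+ cells against 21 of 48 mKO2neg cells. At 5000 counts per cell this was 8 of 45 against 5 of 43, with overlapping intervals (8.0% to 32.1% and 3.9% to 25.1%). Pgam1, a phosphoglycerate mutase, had 5, 10, 5 and 21 counts. Its log2 ratio of 1.16 in mAG+ over mKO2neg had an interval of -0.17 to 3.04, and its row was the one member row that depends on whether genes absent from the tables are counted in the order. Bpgm, which makes 2,3-bisphosphoglycerate, was at 22.5, 35.2, 55.3 and 45.5 CPM. Among enolases, Eno1, the form of most tissues, was at 298, 323, 293 and 254 CPM, a log2 ratio of -0.20 (-0.38 to -0.03) in mAG+ over mKO2neg that was 0.01 at 5000 counts per cell. Eno2, the neuronal form, had 13 counts in all, and Eno3, the muscle form, was at 11.8, 8.22, 22.4 and 11.5 CPM with 69.4% of the mKO2neg counts in 1 cell. The Eno3 log2 ratio in mAG+ over mKO2neg was -0.94, against 0.61 without each gate's deepest cell and 0.17 with equal weight for every cell.

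Pyruvate kinase and lactate dehydrogenase A were lower in mAG+ as well. Pkm, which makes pyruvate and the last ATP of the pathway, was at 602 CPM (553 to 654) in mKO2high and 665 CPM (626 to 705) in mKO2low, then 662 CPM (623 to 703) in mKO2neg and 423 CPM (399 to 448) in mAG+. The first 3 gates overlap in their intervals and mAG+ is below them, with a log2 ratio of -0.65 (-0.77 to -0.53) over mKO2neg. Ldha, which favours the reduction of pyruvate to lactate, was at 809 CPM (753 to 869), 969 CPM (923 to 1017), 659 CPM (620 to 700) and 364 CPM (342 to 387). It was highest in mKO2low, and its log2 ratio was -0.85 (-0.98 to -0.73) in mAG+ over mKO2neg and 0.26 (0.14 to 0.39) in mKO2low over mKO2high. Ldhb, the heart-type form, was at 274, 162, 256 and 188 CPM, a log2 ratio of -0.44 (-0.63 to -0.26) in mAG+ over mKO2neg and -0.76 (-1.01 to -0.51) in mKO2low over mKO2high. Ldha and Ldhb thus stood on opposite sides in mKO2low over mKO2high. In mAG+ over mKO2neg the Ldhb ratio was -0.18 with equal weight for every cell and -0.37 at 5000 counts per cell. Among cells with at least 1000 counts, the median Ldhb level was 142 CPM in mAG+ and 120 CPM in mKO2neg.

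Among the kinases that switch off pyruvate dehydrogenase, Pdk2 was the one with an interval far below 0 in mAG+ over mKO2neg. Pdk2 was at 33.2 CPM (22.6 to 47.1) in mKO2high and 27.6 CPM (20.3 to 36.7) in mKO2low, then 31.1 CPM (23.1 to 41.0) in mKO2neg and 3.94 CPM (1.97 to 7.05) in mAG+. The 3 other gates lay above mAG+ without overlap of intervals, and the log2 ratio in mAG+ over mKO2neg was -2.84 (-4.07 to -2.02), from 11 counts in 6 mAG+ cells against 50 counts in 12 mKO2neg cells. The shares of cells with a Pdk2 count overlapped in their intervals, 12.5% (4.73 to 25.3) in mAG+ and 25% (13.6 to 39.6) in mKO2neg. At 5000 counts per cell Pdk2 had 1 count in mAG+ and 4 in mKO2neg, too few for a ratio. Pdk1, a HIF-1 target, was at 74.9, 70.5, 58.4 and 51.9 CPM. In mKO2high 60% of its counts came from 1 cell, and its log2 ratio in mKO2low over mKO2high, -0.09, was 1.01 without the top cell of each gate, 1.13 without each gate's deepest cell, 0.38 with equal weight for every cell and -0.27 at 5000 counts per cell. Pdk3 was at 64.2, 89.2, 97.6 and 71.6 CPM. In mAG+ over mKO2neg the log2 ratios of Pdk1 and Pdk3 were -0.17 (-0.55 to 0.22) and -0.44 (-0.75 to -0.14).

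Lactate export was carried by few counts. Slc16a1, which encodes the widely expressed lactate transporter MCT1, was at 12.9 CPM in mKO2high and 19.96 in mKO2low, then 18.03 in mKO2neg and 29.0 in mAG+, a log2 ratio of 0.67 (0.06 to 1.35) in mAG+ over mKO2neg. With Tpi1 and Gapdh it was the third member whose interval lay above 0 in that comparison. The Slc16a1 ratio there was 0.29 with equal weight for every cell. Slc16a3, which encodes MCT4 of glycolytic cells, had 8, 3, 7 and 8 counts in 2, 2, 2 and 3 cells, with 87.5% of the mKO2high counts in 1 cell.

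The members were counted in the 2 comparisons within a library. In mAG+ over mKO2neg, all 32 members had at least 10 counts over both gates, and 22 were lower and 10 higher in mAG+, a median log2 ratio of -0.44 against 0.06 over 12115 genes. Intervals lay below 0 for 15 members, where they did for 27.1% of all genes, above 0 for 3, where they did for 30.7%, and spanned it for 14. Intervals narrow with more counts, so these shares depend on how abundant a gene is. The 15 include Pfkp, Eno3 and Eno1, whose sign turned under alternatives given above. At least 2-fold lower in mAG+ were 5 (Aldoa, Aldoc, Hk2, Pdk2, Pfkfb3), where 14.6% of all genes were, and at least 2-fold higher was 1 (Pgam1), where 21.2% of all genes were. The share of members 2-fold lower was near that background and is no result about them as a group. In mKO2low over mKO2high, 30 members had enough counts, 16 higher and 14 lower, with a median of 0.08 against 0.05 over 10901 genes. At least 2-fold higher in mKO2low were 2 (Pfkfb3, Aldoc) against a background of 19.6%, and at least 2-fold lower were 3 (Slc2a1, Hk3, Slc16a3) against 15%.

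**Figure D3:**
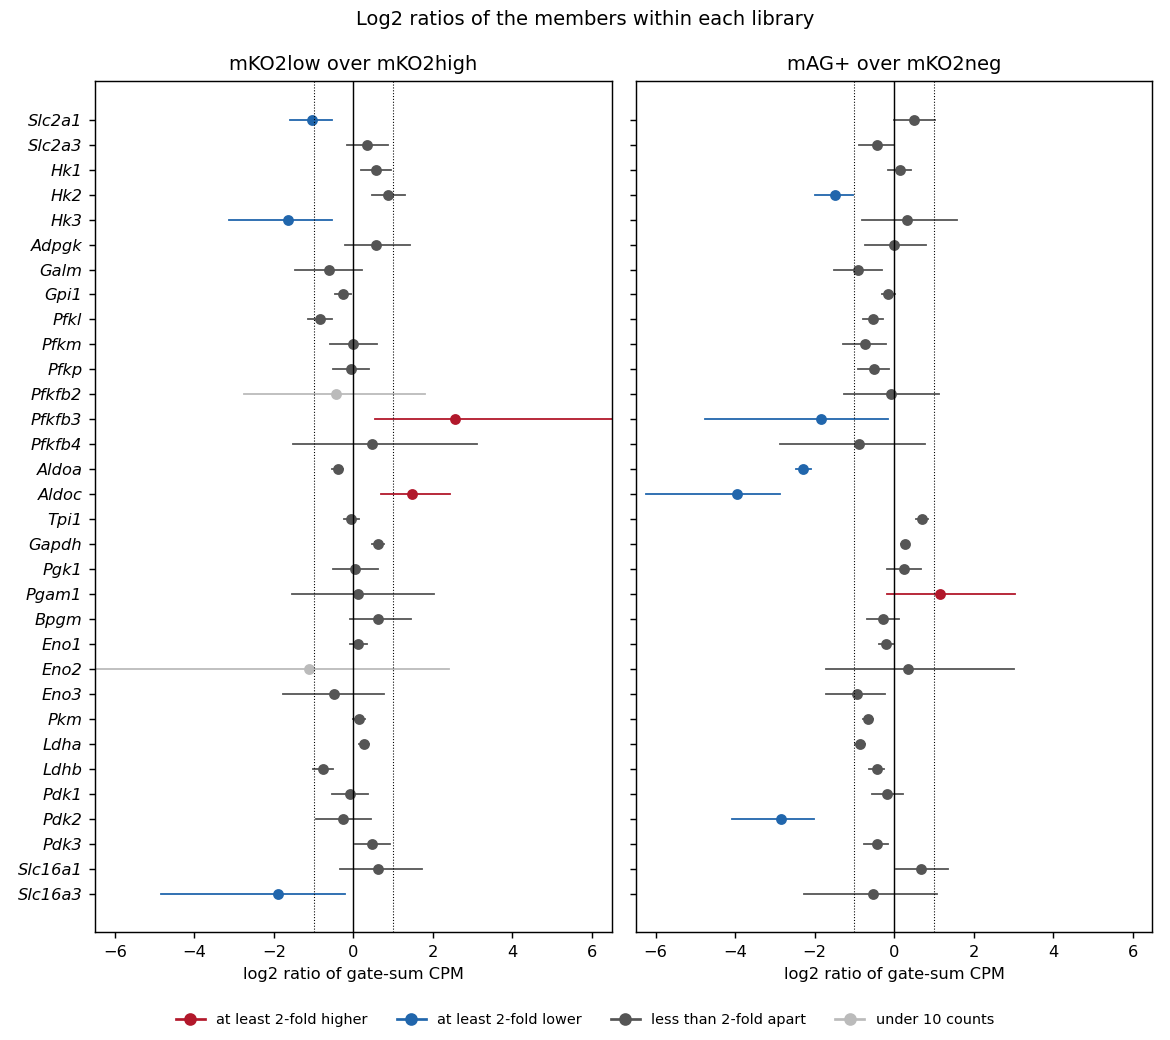
Log2 ratio of the gate-sum CPM of each gene within each library, mKO2low over mKO2high (left) and mAG+ over mKO2neg (right), with exact 95% intervals for counting error and dotted lines at 2-fold. On the right 15 intervals lie below 0 (27.1% of all genes) and 3 above it (30.7%), and on the left 7 lie below (24.7%) and 7 above (25.6%).

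In comparisons across the 2 libraries gate and library cannot be told apart, and they share gates with the comparisons above. In mAG+ over mKO2high, 29 members had enough counts, 20 lower and 9 higher, with a median log2 ratio of -0.51 against 0.12 over 11849 genes. At least 2-fold lower were 8 (Aldoc, Aldoa, Pdk2, Hk2, Slc16a3, Ldha, Hk3, Pfkl), where 17.1% of all genes were, and at least 2-fold higher was Slc16a1, where 26.2% were. Aldoa had a log2 ratio of -2.94 (-3.13 to -2.77) and Gapdh of 0.86 (0.72 to 1.01). In mKO2neg over mKO2low, 31 members had a median of -0.10 against 0.01 over 11375 genes. At least 2-fold higher were 3 (Pfkfb2, Eno3, Slc16a3) against a background of 15.3%, and at least 2-fold lower were 2 (Hk2, Adpgk) against 16.7%.

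Where 2 or 3 genes encode the same step, the makeup of the step in pooled counts differed between gates. Ldhb held 25.3% (22.6 to 28.1) of lactate dehydrogenase counts in mKO2high and 14.3% (12.8 to 15.9) in mKO2low, then 28.0% (25.7 to 30.4) in mKO2neg and 34.1% (31.7 to 36.5) in mAG+. The mKO2low gate was lowest, and with cells reduced to 5000 counts the shares were 29.0%, 17.6%, 25.7% and 30.6%. Hk2 held 40.9% (33.3 to 48.8) of hexokinase counts in mKO2high and 50% (45.3 to 54.7) in mKO2low, then 35.8% (30.1 to 41.8) in mKO2neg and 14.9% (11.6 to 18.8) in mAG+. At 5000 counts per cell the mAG+ share was 33.3%, from 21 hexokinase counts, and the mean over single cells was 26.7% in mAG+ against 34.3% in mKO2neg, so the pooled contrast leans on the cells with the most counts.

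Pdk2 held 19.3% (13.5 to 26.2) of the counts of the 3 kinases in mKO2high and 14.7% (11.0 to 19.1) in mKO2low, then 16.6% (12.6 to 21.3) in mKO2neg and 3.09% (1.55 to 5.46) in mAG+. The interval of mAG+ is below those of the other gates. Slc2a1 held 59.5% of the counts of the 2 glucose transporters in mKO2high and 35.5% in mKO2low, then 35.7% in mKO2neg and 51.6% in mAG+. At 5000 counts per cell these were 40.9%, 37.9%, 28.6% and 66.7%, from at most 29 counts a gate, and the means over single cells were 52.1%, 44.5%, 44.5% and 44.2%, so no order of gates held across the measures. Pfkl held 64.9% (59.1 to 70.3) of phosphofructokinase counts in mKO2high and 51.6% (46.4 to 56.7) in mKO2low, then 58.8% in mKO2neg and 59.8% in mAG+. At 5000 counts per cell these shares were 69.1%, 51.9%, 67.4% and 54.3%. The means over single cells were 63.7%, 66.5%, 62.8% and 56.9%, so the order of mKO2high and mKO2low turned with the measure. These shares compare genes that may be counted with different efficiency, so only their differences between gates can be read.

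**Figure D4:**
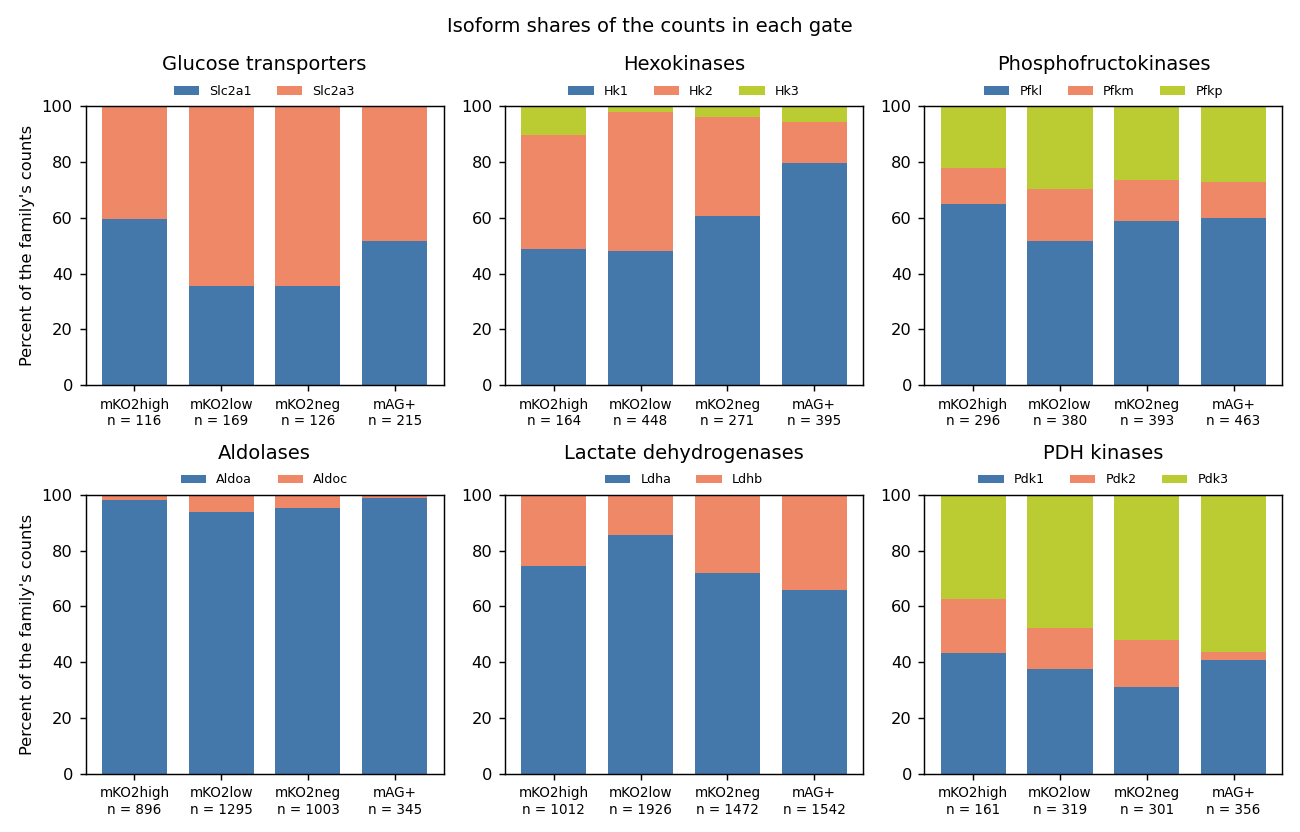
Share of each gene in the summed counts of its family, in percent, for 6 families in the 4 gates, with the number of family counts (n) under each bar. Ldhb is smallest in mKO2low (14.3%), and Hk2 (14.9%) and Pdk2 (3.09%) are smallest in mAG+.

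Within the 32 genes, aldolase and the triose steps held different shares in mAG+ and the other gates. Aldoa held 18.4% of the members' counts in mKO2high and 13.6% in mKO2low, then 12.5% in mKO2neg and 3.25% in mAG+. Gapdh held 9.73%, 14.6%, 15.7% and 24.1% in the same gates, and Tpi1 held 7.47%, 7.02%, 6.48% and 13.4%. These are shares of one sum, in which a smaller share of Aldoa makes the other shares larger.

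Per cell, the 32 genes took a median of 0.489% of the counts in mKO2high and 0.488% in mKO2low, then 0.456% in mKO2neg and 0.377% in mAG+. The quartiles were 0.351% and 0.587% in mKO2high and 0.421% and 0.590% in mKO2low, then 0.379% and 0.529% in mKO2neg and 0.293% and 0.464% in mAG+, so the ranges of cells overlap widely. A cell held counts of a median of 12 members in mKO2high and 13.5 in mKO2low, then 13.5 in mKO2neg and 16 in mAG+. With cells reduced to 5000 counts these medians were 9, 9, 9 and 8, so the higher number in mAG+ was not seen at equal depth.

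Neighbouring pathways are given for comparison as sums and counts. Over all genes the median log2 ratio was 0.05 in mKO2low over mKO2high and 0.06 in mAG+ over mKO2neg. No values at equal depth or with equal weight for every cell are given for these lists. The pentose phosphate pathway, which branches off glucose-6-phosphate to make NADPH and ribose, summed to 932 CPM in mKO2low against 550 CPM in mKO2high, a log2 ratio of 0.76 (0.62 to 0.91), with 6 of 7 genes higher. Among these were Pgls (1.22), Taldo1 (0.99) and Tkt (0.66), while Pgd was at -0.31 (-0.73 to 0.11). It summed to 686 CPM in mAG+ against 919 CPM in mKO2neg, a log2 ratio of -0.42 (-0.52 to -0.32), with 5 of 7 genes lower. The TCA cycle, which burns pyruvate in mitochondria, hardly differed: 3357 CPM in mAG+ against 3283 CPM in mKO2neg, a log2 ratio of 0.03 (-0.02 to 0.08), with 9 of 18 genes on each side.

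Pyruvate dehydrogenase and pyruvate entry summed to 494 CPM in mAG+ against 584 CPM in mKO2neg, a log2 ratio of -0.24 (-0.36 to -0.12), although 5 of 9 measured genes were higher and the median was 0.09. In mKO2low over mKO2high the log2 ratio of its sums was -0.42 (-0.57 to -0.28). The 4 genes with the most counts were at -0.90 (Pdhb), -0.08 (Mpc2), -0.52 (Dld) and -1.85 (Dlat), while Pdhx (1.04) and Pdp2 (1.06), noted after their values were seen, were higher. The serine branch, which draws on 3-phosphoglycerate, summed to 550 CPM in mAG+ against 501 CPM in mKO2neg, a log2 ratio of 0.14 (0.01 to 0.26), with 3 of 5 genes higher. Psat1 was at 2.32 (1.92 to 2.78), Shmt2 at 0.77 (0.39 to 1.16), Psph at 0.57 (0.22 to 0.95) and Phgdh, the entry enzyme, at -0.68 (-0.86 to -0.51). Other isoforms and transporters, led by Slc2a8 with 98 counts in all, and the glycerol branch, led by Gpd2, were at 43.7 and 84.5 CPM in mAG+ against 30.5 and 76.5 CPM in mKO2neg.

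The listed regulators of glucose use, which hold both drivers and limiters, summed to less in mAG+. Txnip, Meis1, Myc and Mycn, the genes with the most counts, weigh most in this sum. Hif1a was at 29.2 CPM in mKO2neg and 32.2 CPM in mAG+, a log2 ratio of 0.14 (-0.38 to 0.68). The 16 regulators summed to 1058 CPM in mAG+ against 1894 CPM in mKO2neg, a log2 ratio of -0.84 (-0.91 to -0.77), with 8 of 14 measured genes lower and 6 higher. Txnip, which limits glucose uptake, was at 777 CPM in mKO2high and 489 in mKO2low, then 600 in mKO2neg and 292 in mAG+, a log2 ratio of -1.04 (-1.18 to -0.90) in mAG+ over mKO2neg. Myc, a driver of glycolytic genes, was at 301, 189, 249 and 121 CPM, and Mycn at 212, 211, 282 and 50.2 CPM, log2 ratios of -1.04 (-1.25 to -0.83) and -2.48 (-2.77 to -2.21) in mAG+ over mKO2neg. Meis1, a stem cell factor that acts on Hif1a, was at 504, 360, 399 and 293 CPM and is also among the stem and progenitor markers, whose sum was lower in mAG+ (1778 CPM) than in mKO2neg (2179 CPM).

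**Figure D5:**
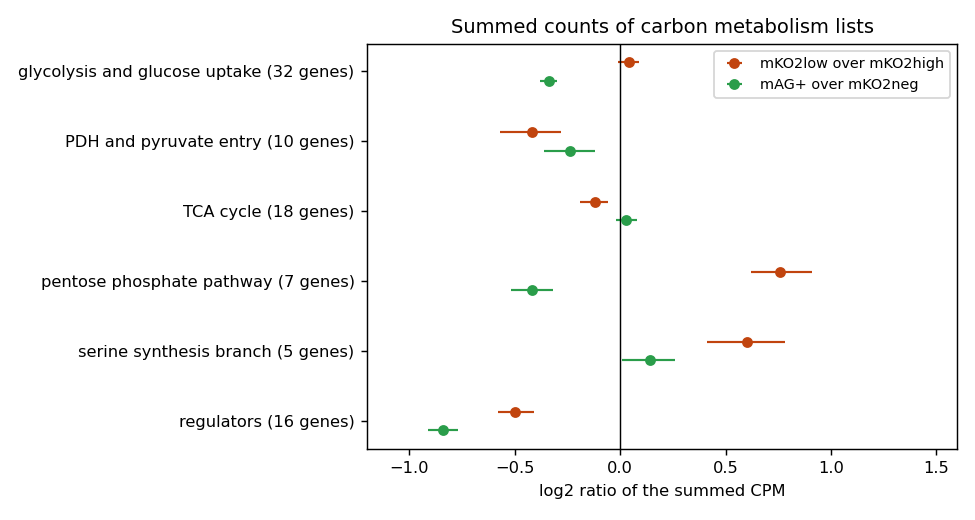
Log2 ratio of summed CPM for glycolysis and 5 neighbouring lists within each library, with exact 95% intervals for counting error. In mAG+ over mKO2neg, glycolysis (-0.34), the pentose phosphate pathway (-0.42) and the regulators (-0.84) are below 0 and the TCA cycle (0.03) spans it; in mKO2low over mKO2high, glycolysis is at 0.04.

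Reads of some members may be shared with other genes. Near-identical 3' ends were found for 5 members (Gapdh, Eno1, Gpi1, Ldhb, Pfkp), exons of another gene on the same strand overlapped 3 (Pfkm, Pfkfb2, Pkm), and exons on the other strand overlapped 11, among them Aldoa and Tpi1. Whether counting used strand is not given in the sources used here, so reads of a gene and its partner on the other strand cannot be told apart.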

How the data were processed

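Counts were whole numbers per gene row and cell and were not normalized in the tables as deposited by the authors. Per the labels' protocols, cDNA was made from single cells by a modified Smart-seq2 protocol and its 3' ends were pulled down with biotin and streptavidin beads. The submitters' processing notes name HISAT2, HTSeq 0.11.3, Seurat and the build mm10 but give none a role. Not given in the sources used here are the annotation release, the filters, the strand of counting and any use of molecular identifiers. All 192 cells were placed in a library and gate by the authors' cell table.

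Of 53378 rows, 53273 had an ID in GENCODE vM21 and 105 (0.222% of counts) did not. Each gene was read from the row of the gene just before it among those in the tables. The members and all lists were chosen with earlier results of these data known, and all 32 members are reported. From the other pathway lists, up to 4 genes with the most counts are named, besides Pdhx, Pdp2 and Hif1a. Marker genes were named after their values were seen.

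Counts were summed per gate and scaled to CPM. Log2 ratios used a prior count of 1, and medians and counts of members took in genes reaching 10 counts over the pair of gates. A call is a ratio of at least 2-fold. Intervals are conditional binomial for ratios, Poisson for levels and Clopper-Pearson for shares, all exact, at 95%. A gene without a count would be limited at 3 counts, which is 3.21 CPM in mKO2high and 1.76 in mKO2low, then 1.86 in mKO2neg and 1.07 in mAG+. Cells reduced to 5000 counts numbered 39, 48, 43 and 45 from mKO2high to mAG+. No doublet caller was run on these singly sorted cells. With 1 sample a gate no test was run and no design across replicates was fitted. The calculation was tested on simulated gate sums that held counting error only. They held no spread between cells, so that test says nothing of such spread. Python 3.11.15, edgeR 4.0.16 and DESeq2 1.42.0 (scaling factors only) and blastn 2.17.0 (last 500 bases of each transcript, at least 95% identity over at least 20%) were used. Promoters came from RefSeq.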

Additional observations from a re-analysis of the deposited data

How the results depend on the processing

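Of 140 alternatives to the summary values, 111 kept the value within its counting error or, for counts of members, within 1.5 times, 26 moved it and 3 reversed it. Of 1212 for single members, 1096, 108 and 8 did, and only members at least 2-fold apart could be called reversed. At 5000 counts per cell 42 of 83 moved and 1 reversed. With equal weight for every cell 24 of 122 moved and 1 reversed. Leaving out the filter on low counts could not change a member's ratio. The order over all vM21 genes changed the row of Pgam1 alone. The 1096 thus include values that were fixed in advance. Every alternative with TMM factors (edgeR) or size factors (DESeq2), a quality filter on cells (at least 1000 gene rows, under 20% mitochondrial counts), no filter on low counts or a prior count of 0.5 left its values unmoved.

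In mAG+ over mKO2neg the log2 ratio of the sums (-0.34) was -0.27 without the top cell of each gene and -0.49 without Gapdh. Read with the labels as deposited it was 0.35 and the median 0.26, both reversed. In mKO2low over mKO2high the log2 ratio of the sums (0.04) was 0.15 without each top cell, -0.04 without Gapdh and -0.04 as labelled, and the 5 members at least 2-fold apart became 0 at 5000 counts per cell, where Hk3, Pfkfb3 and Slc16a3 had under 10 counts and gave no value. In mKO2neg over mKO2low the sums (-0.15) gave -0.23 without each top cell and -0.55 as labelled. The 5 members 2-fold apart became 2 with cells weighted equally, and 3 at 5000 counts or without each top cell. At 5000 counts Pfkfb2, Eno3 and Slc16a3 had under 10 counts and gave no value, so the 3 there are not all among the 5. In mAG+ over mKO2high the sums (-0.45) gave -0.39 with equal weight for each cell, -0.35 without each top cell, -0.70 without Gapdh and -0.24 as labelled. The median (-0.51) was -0.33 with equal weight, -0.18 at 5000 counts, -0.30 without each top cell and 0.19 as labelled. The 9 members 2-fold apart became 5 at 5000 counts, where Aldoc, Pdk2, Hk3, Slc16a1 and Slc16a3 had under 10 counts and gave no value.

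Reversed single genes, among those at least 2-fold apart, were Hk2 in mKO2neg over mKO2low (0.15 with equal weight, 0.09 at 5000 counts), Eno3 there without the deepest cell (-0.15), and, as labelled, Slc16a3 there (-0.56), Hk3 (0.12) and Slc16a3 (0.43) in mKO2low over mKO2high, Pgam1 in mAG+ over mKO2neg (-0.46) and Hk3 in mAG+ over mKO2high (0.81). The median share of cells with a count was 14.6% in mKO2low, 16.3% in mKO2neg and 13.3% in mAG+ at 5000 counts, against 32.3%, 32.3% and 41.7% with all counts. As labelled, the members took a median of 0.122%, 0.113%, 0.0872% and 0.0996% of a cell's counts from mKO2high to mAG+. Apart from the alternatives that name their own change, the cause was not tested. Counting the gene order over all vM21 genes gave no value for Pgam1. No paired analysis was possible because each gate is 1 sample and the labels give no replicate numbers. Depth limits members under 10 counts.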
